A study of Homo sapiens with 3 samples.

Results

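The genes described here are 10 epithelial antimicrobial and acute-phase genes, which are LCN2, DEFB4A, DEFB1, PI3, SLPI, SAA1, SAA2, C3, CFB and TLR2. They were chosen by name with their values on these arrays known, so their levels and ratios are a description and no test of them was made. They are 10 of the 22439 genes named on the array and are represented by 12 probes. SAA2 and C3 each had 2 probes, and the other 8 genes had 1 probe each.

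TK-10 is a line of human renal carcinoma cells, and its RNA was labelled with a single dye and hybridised to 3 Agilent arrays, 1 for each condition. The vehicle cells had received 0.1% DMSO, and the treated cells had received either cordyceps at 750 μg/ml or sunitinib at 10 μM, a receptor tyrosine kinase inhibitor, each for 48 h. All cells were grown in serum-containing medium with nicotinamide, troglitazone and zinc sulfate. The paper's methods name DMEM with serum and antibiotics and do not name these additives. Cordyceps is the name on the array's labels, whereas the paper names cordycepin, an adenosine analogue of Cordyceps fungi, at another dose, and which of them the cells received was not settled by the files. The labels do not say whether the treated cells were also given DMSO. No condition was repeated, so the ratios have no replicate error and the number of arrays limits their precision.

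Antimicrobial and acute-phase proteins are made by epithelia and by the liver as a first defence against microbes. LCN2 withholds iron from bacteria by binding their siderophores, defensins damage microbial membranes, and SLPI and PI3 inhibit the elastase that neutrophils release. The serum amyloid A proteins SAA1 and SAA2 are induced in inflammation, C3 and CFB form the convertase of the alternative complement pathway, and TLR2 is a receptor for bacterial lipoproteins. Many of these genes are known targets of NF-κB, C/EBP and STAT3, and in the kidney LCN2 is known as a marker of tubular injury.

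Because NF-κB is known to act on several of these genes, the 250 bases upstream of the transcription start are shown for 3 of them. These 3 were matched in RefSeq's promoter table of GRCh38.p14, in a search that left out DEFB4A and DEFB1. LCN2 was higher on the cordyceps array and lower on the sunitinib array, and CFB and TLR2 had small ratios. Capitals mark matches to the κB-like letters GGGNNNNNCC, searched on both strands, with overlapping matches counted separately. The windows are chr9:128149203-128149452 for LCN2, chr6:31945845-31946094 for CFB and chr4:153684030-153684279 for TLR2, and all 3 genes lie on the plus strand.
LCN2: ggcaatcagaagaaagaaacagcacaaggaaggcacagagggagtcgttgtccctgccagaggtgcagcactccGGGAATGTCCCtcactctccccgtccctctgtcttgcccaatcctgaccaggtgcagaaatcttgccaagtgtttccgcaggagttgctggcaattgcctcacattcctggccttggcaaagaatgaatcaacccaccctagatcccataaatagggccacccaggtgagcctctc
CFB: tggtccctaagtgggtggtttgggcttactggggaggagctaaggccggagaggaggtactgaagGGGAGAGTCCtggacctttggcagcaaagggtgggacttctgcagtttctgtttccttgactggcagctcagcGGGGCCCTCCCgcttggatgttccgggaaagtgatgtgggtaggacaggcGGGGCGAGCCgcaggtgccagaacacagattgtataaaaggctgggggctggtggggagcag
TLR2: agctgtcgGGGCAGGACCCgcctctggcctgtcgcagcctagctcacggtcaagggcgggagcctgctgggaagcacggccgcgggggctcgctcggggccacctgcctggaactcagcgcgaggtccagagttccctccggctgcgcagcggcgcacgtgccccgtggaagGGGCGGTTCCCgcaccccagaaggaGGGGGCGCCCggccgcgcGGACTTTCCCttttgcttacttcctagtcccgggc
The LCN2 window held 2 overlapping matches, 176 to 166 bases before the start. The CFB window held 5 matches and the TLR2 window held 7, and the GC content of the windows was 54.8% for LCN2, 60.0% for CFB and 72.4% for TLR2. Such a match was present in 19112 of 35116 upstream windows of the table (54.4%), so it is common in promoters. It describes the letters and not a bound site. All 3 genes held a match, and its part in their ratios, given below, was not tested.

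The renal identity of the cells was checked against 19 marker genes with a probe, of which 15, 15 and 14 cleared the background on the vehicle, cordyceps and sunitinib arrays. PAX8, a kidney transcription factor, had processed signals of 6878, 3159 and 2382 on the vehicle, cordyceps and sunitinib arrays. CDH1, the epithelial cadherin, did not clear the background on any of the arrays, and neither did CA9, CUBN and SLC22A6. Of 12 neutrophil and macrophage markers, a class that is known to express LCN2, SLPI or TLR2, 5, 3 and 4 cleared the background on the vehicle, cordyceps and sunitinib arrays. Their summed signal was 1.96, 1.84 and 3.76 times the 75th percentile of the respective array, and the granule genes ELANE, MPO, PRTN3 and CEACAM8 were not well above background on any. AZU1, also a granule gene, was so on the sunitinib array, with a signal of 61.0, and not on the other two. PTPRC, the pan-leukocyte marker, gave 18.4 with vehicle and 45.7 with sunitinib and did not clear the background with cordyceps. Of 10 lymphocyte markers 4, 3 and 4 were well above background, with sums of 36.7, 32.6 and 56.0 times the percentile, and of 12 hepatocyte markers 2 were on each array, with sums of 1.12, 2.39 and 1.83. CD4 and CD79A made up most of the lymphocyte sum, with signals of 3806, 2725 and 2607 for CD4 and of 2081, 1639 and 1641 for CD79A, while MS4A1 and CD2 were below the software's limit throughout. The part of these markers in the ratios below was not tested. In RNA from a whole culture, fewer cells that express a gene and less of its RNA per cell cannot be told apart.

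Signals were expressed as log2 of the processed signal less log2 of that array's own 75th percentile over probes, a signal of 165 with vehicle, 138 with cordyceps and 78.2 with sunitinib. Between 37.8% and 45.5% of the 58201 probes were well above background by the software's flag. Of the 10 genes, 9 were well above background on all 3 arrays, as were 12481 of all named genes, and PI3 was so on none. The ± values are the software's error of the spots carried into the log2 ratio, and 95% limits are given where a ratio was small. This error was 10.0% of the signal at the median over the genes and arrays, and it leaves out differences between cultures, RNA extracts and labelling. A bright streak covered 574 spots of the cordyceps array, and it held none of the 12 probes (0 of 12).

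**Figure D1:**
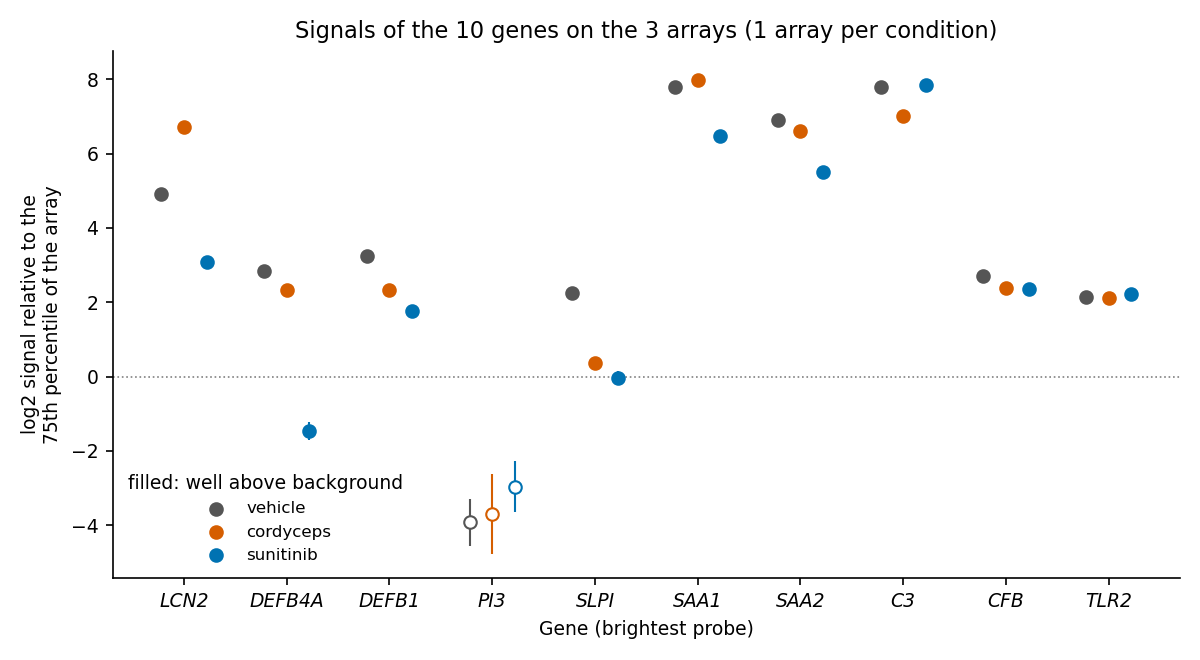
Log2 processed signal relative to the array's 75th percentile (vertical axis) of the 10 genes (horizontal axis), for the vehicle, cordyceps and sunitinib arrays, with bars for the software's spot error. Filled points were well above background. LCN2 lay at 4.93, 6.72 and 3.09 on the vehicle, cordyceps and sunitinib arrays, and the PI3 points are open on all 3.

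Among the secreted antimicrobial genes, LCN2, which encodes the siderophore-binding lipocalin, was higher on the cordyceps array and lower on the sunitinib array than on the vehicle array. Its processed signal was 5011 on the vehicle array, 14523 on the cordyceps array and 664 on the sunitinib array. The log2 ratio of cordyceps over vehicle was 1.79 ± 0.20, which is 3.46-fold higher, and 99.0% of the genes compared had a lower ratio. The log2 ratio of sunitinib over vehicle was -1.84 ± 0.20, or 3.58-fold lower. LCN2 was the 1 gene of the 9 that was more than 2-fold higher on either treated array than on the vehicle array.

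The defensin genes had lower signals on both treated arrays, and by more on the sunitinib array. DEFB4A, which encodes the inducible human beta-defensin 2, had signals of 1191 on the vehicle array, 692 on the cordyceps array and 28.5 on the sunitinib array. Its log2 ratio was -0.53 ± 0.20 for cordyceps over vehicle and -4.31 ± 0.28 for sunitinib over vehicle, the latter being 19.8-fold lower. That was the lowest ratio among the 9 genes, and 0.027% of all genes compared had a lower one. The sunitinib signal of DEFB4A lay near the lowest signal among detected probes of that array, which was 18.3. DEFB4A has a near-identical copy, DEFB4B, and the probe cannot be taken to tell them apart. DEFB1, which encodes the constitutive beta-defensin 1, had signals of 1566, 699.8 and 264 on the vehicle, cordyceps and sunitinib arrays. Its log2 ratio was -0.91 ± 0.20 for cordyceps, or 1.87-fold lower, and -1.49 ± 0.21 for sunitinib, or 2.82-fold lower.

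Of the antiprotease genes, SLPI was low on both treated arrays and PI3 was not detected. SLPI had signals of 788 on the vehicle array, 176 on the cordyceps array and 76.5 on the sunitinib array. The log2 ratio was -1.91 ± 0.21 for cordyceps over vehicle, which is 3.75-fold lower, and 0.28% of the genes compared had a lower ratio. For sunitinib over vehicle it was -2.29 ± 0.23, which is 4.90-fold lower. SLPI was thus the 1 gene of the 9 more than 2-fold below the vehicle array on the cordyceps array. PI3, which encodes elafin, had signals of 10.9, 10.6 and 10.0 on the vehicle, cordyceps and sunitinib arrays, and no ratio is given because none was well above background.

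The serum amyloid genes were within the 95% limit on the cordyceps array and lower on the sunitinib array. SAA1 had signals of 36856 on the vehicle array, 34851 on the cordyceps array and 6997 on the sunitinib array. Its log2 ratio was 0.17 for cordyceps over vehicle, with a 95% limit of 0.40, and -1.32 ± 0.20 for sunitinib over vehicle, or 2.50-fold lower. SAA2 had signals of 19605, 13520.3 and 3556.5 with its brighter probe, which gave a log2 ratio of -0.28 (95% limit 0.40) for cordyceps and -1.39 ± 0.20 for sunitinib, the latter 2.62-fold lower. The other SAA2 probe, for another transcript, had signals of 821, 795 and 177 and log2 ratios of 0.21 for cordyceps and -1.14 for sunitinib. The 2 SAA2 probes therefore differed in sign for cordyceps, where both ratios were small, and had the same sign for sunitinib. SAA1 and SAA2 are near-identical in sequence, so their probes may share RNA and are not independent measurements.

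The complement genes had ratios within 2-fold on both treated arrays. C3, the central component of the complement cascade, had signals of 36466 on the vehicle array, 17943 on the cordyceps array and 18178 on the sunitinib array with its brighter probe. Although both treated signals were close, their percentiles were not, and the log2 ratio over vehicle was -0.77 ± 0.20 for cordyceps, or 1.70-fold lower, and 0.07 (95% limit 0.40) for sunitinib. The other C3 probe had signals of 4132, 2107 and 1869 and log2 ratios of -0.72 for cordyceps and -0.07 for sunitinib. Both C3 probes were thus lower on the cordyceps array by more than the 95% limit and within it on the sunitinib array. CFB, the serine protease of the alternative convertase, had signals of 1079, 722 and 398 on the vehicle, cordyceps and sunitinib arrays. Its log2 ratios of -0.32 and -0.36 both lay within the 95% limit of 0.40.

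TLR2, the receptor for bacterial lipoproteins, had nearly the same log2 level on the 3 arrays after scaling. Its signals were 722 on the vehicle array, 594 on the cordyceps array and 363 on the sunitinib array, and its log2 levels were 2.13, 2.11 and 2.21. The log2 ratios were -0.03 for cordyceps and 0.08 for sunitinib over vehicle, with a 95% limit of 0.40. A difference of up to about that size would not have been seen with this error.

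**Figure D2:**
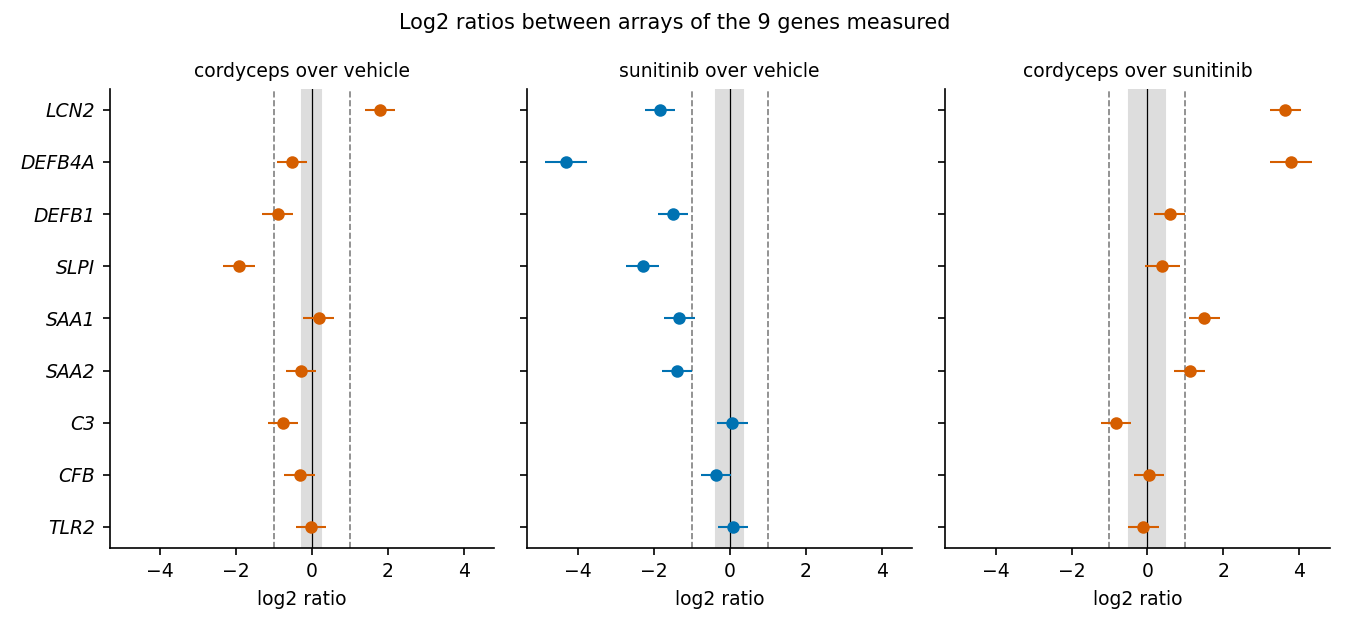
Log2 ratios between arrays (horizontal axes) of the 9 genes measured, for cordyceps over vehicle, sunitinib over vehicle and cordyceps over sunitinib. Bars are the 95% limits of the spot error, dashed lines mark 2-fold, and grey bands span the middle of all genes compared, from the lower to the upper quartile. LCN2 lies at 1.79, -1.84 and 3.63, and TLR2 lies within the grey band in each.

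Counted over the genes, cordyceps over vehicle gave 1 of 9 more than 2-fold higher, which was LCN2, where 2.93% of the 14774 genes compared were higher by that much. It gave 1 of 9 more than 2-fold lower, which was SLPI, where 2.74% of all genes were. With the 95% limit of the spot error in place of 2-fold, LCN2 was higher, DEFB4A, DEFB1, SLPI and C3 were lower, and SAA1, SAA2, CFB and TLR2 were within it. The median log2 ratio of the 9 genes was -0.32, beside 0 for all genes compared.

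In sunitinib over vehicle, 6 of the 9 genes were more than 2-fold lower, where 6.49% of the 14897 genes compared were. These were LCN2, DEFB4A, DEFB1, SLPI, SAA1 and SAA2, and the ratios ran from -4.31 for DEFB4A to -1.32 for SAA1. None of the 9 (0 of 9) was more than 2-fold higher, where 6.41% of all genes were. C3, CFB and TLR2 were within the 95% limit. The median log2 ratio was -1.39, beside 0 for all genes. Since the genes were chosen with these values known, nothing is read from the counts against the shares of all genes.

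The cordyceps and sunitinib arrays were also set directly against each other, a comparison that holds no vehicle array but follows from the other 2. In cordyceps over sunitinib, 4 of 9 genes were more than 2-fold higher, where 9.43% of the 13876 genes compared were, and 0 of 9 were more than 2-fold lower, where 7.56% were. DEFB4A had a log2 ratio of 3.78 ± 0.28, or 13.8-fold higher, and LCN2 had one of 3.63 ± 0.20, or 12.4-fold higher. The ratio was 1.50 for SAA1 and 1.11 for SAA2, or 2.82-fold and 2.16-fold higher. DEFB1 had a ratio of 0.59, which exceeded the 95% limit but not 2-fold, and SLPI had one of 0.38, within its 95% limit of 0.46. C3 alone of the 9 was lower by more than the 95% limit, with a ratio of -0.84, or 1.79-fold lower. This depended on the scaling, since the ratio was -0.28 with median scaling and -0.02 without scaling, both within that limit. CFB and TLR2, with 0.04 and -0.11, were within the 95% limit, and both changed sign with the processing. The median of the 9 genes was 0.59, beside -0.01 for all genes.

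The sunitinib array was dimmer, with a 75th percentile 1.07 log2 units below that of the vehicle array, and the cordyceps array was 0.26 units below. A gene with equal signals on the sunitinib and vehicle arrays therefore has a log2 ratio of 1.07 between them. Without scaling, the signals on the sunitinib array were 41.7-fold lower than on the vehicle array for DEFB4A, 7.54-fold lower for LCN2, 2.01-fold lower for C3 and 1.99-fold lower for TLR2. The 6 genes called lower with sunitinib were so under each scaling tried, scaled or not, whereas C3 and TLR2 changed sign with the scaling. On the cordyceps array, LCN2 stayed more than 2-fold higher and SLPI more than 2-fold lower under each of the 11 alternatives, between 1.54 and 2.01 for LCN2 and between -2.16 and -1.49 for SLPI. With unscaled values DEFB1 (-1.16) and C3 (-1.02) also passed 2-fold there, and the ratio of SAA1 changed sign to -0.08. TLR2 changed sign to 0.20 when the arrays were scaled to their medians.

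**Figure D3:**
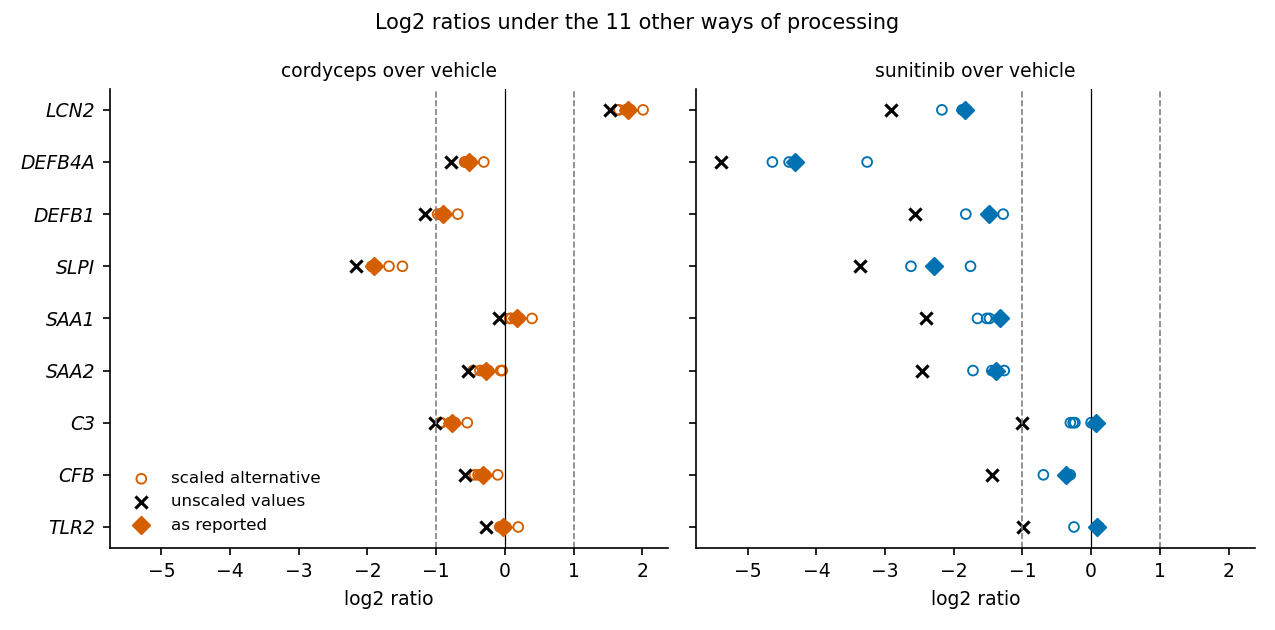
Log2 ratios over vehicle (horizontal axes) of the 9 genes under the 11 other ways of processing, for the cordyceps array and the sunitinib array. Diamonds are the ratios as reported, circles are alternatives that scale the arrays, crosses are the unscaled values and dashed lines mark 2-fold. With sunitinib the unscaled values lie to the left of the others for each gene, and for DEFB4A the ratios run from -5.38 to -3.26.

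The genes whose pair of ratios over vehicle lay nearest to that of LCN2 were sought among 12350 genes that were well above background on all 3 arrays and outside the streak. MND1, a meiotic recombination gene, was nearest, at a distance of 0.14 log2 units, with log2 ratios of 1.65 for cordyceps and -1.83 for sunitinib. EMP1, a membrane protein gene of epithelia, followed at 0.42 with ratios of 1.43 and -1.63, and SEMA7A, a semaphorin gene, at 0.45 with 1.34 and -1.84. The likeness rests on 3 arrays, and both ratios share the vehicle array. The sunitinib signals of MND1 and SEMA7A, 28.6 and 30.9, lay near the lowest detected signal of that array, 18.3, and that of LCN2 was 664.

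Genes of related function were taken from written lists that leave the 10 genes out. Of 36 other antimicrobial genes with a probe, 27 were well above background on no array. LCN2, DEFB4A and DEFB1 were detected on each array but were chosen with their values known, so nothing is read from this difference. With cordyceps 1 of 9 compared was more than 2-fold higher, PGLYRP1, which encodes a peptidoglycan receptor and whose spot lay in the streak, and 0 of 9 were lower. ANG had the highest log2 ratio of those detected on both arrays, 0.25, and RNASE4 the lowest, -0.36. With sunitinib 2 of 8 were higher, RNASE4 by 1.76 and ANG by 1.61, both ribonuclease genes, and 0 of 8 were lower. Of all genes compared with sunitinib, 6.41% were higher and 6.49% lower. DEFB4A, DEFB1 and LCN2 were lower there, but from that too nothing is read, given how they were chosen. ADM, the adrenomedullin gene, had the lowest ratio, -0.90. The median of the list was -0.31 with cordyceps and 0.03 with sunitinib. Cordyceps over sunitinib gave 1 of 6 higher, PGLYRP1, and 2 lower, RNASE4 (-2.12) and ANG (-1.36).

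Of the other protease inhibitors of secretions, none was more than 2-fold lower than vehicle with cordyceps (0 of 14) or sunitinib (0 of 13). Of all genes compared, 2.74% and 6.49% were. SLPI was lower on both arrays but was chosen with its values known, so nothing is read from this difference. SERPINB4 was higher with cordyceps by a bound of 2.03 log2 units, since it was not well above background on the vehicle array. That bound lay within its 95% limit of 2.87. WFDC3, of the same family as SLPI, was higher with sunitinib by 1.26. Its signals were 120 with vehicle and 136 with sunitinib, so most of this ratio comes from the scaling. With cordyceps SPINT2 had the highest ratio detected on both arrays, 0.90, and TFPI the lowest, -0.85. With sunitinib SERPINA1, the antitrypsin gene, had the lowest, -0.93. The medians were 0.04 with cordyceps and -0.0031 with sunitinib. Compared with sunitinib, the cordyceps array had SERPINA1 higher by 1.16 and WFDC3 lower, at -1.25.

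Among the other acute-phase genes, 1 of 9 was higher with cordyceps and 3 of 10 were lower with sunitinib. PTX3, which encodes a pentraxin made outside the liver, had signals of 2844 on the vehicle array, 7047 on the cordyceps array and 160 on the sunitinib array, with log2 ratios over vehicle of 1.56 and -3.08. Like LCN2, it was higher on the first and lower on the second treated array. SAA4, the constitutive serum amyloid gene, had a ratio of -1.05 with sunitinib. HP, the haptoglobin gene, was higher by 1.58 and HPX, the hemopexin gene, by at least 2.07. The signals of HP before scaling were 27.6 with vehicle and 39.2 with sunitinib. ITIH4 had the lowest ratio with cordyceps, -0.82. The list's median was 0.19 with cordyceps and -0.17 with sunitinib. In cordyceps over sunitinib 4 of 9 were higher and 3 lower, from 4.64 for PTX3 to -1.72 for ITIH4.

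Among the other complement genes, 3 of 22 were more than 2-fold higher and 2 lower with cordyceps, and 1 of 21 was higher and 1 lower with sunitinib. CFI, which encodes the protease that inactivates C3b, had signals of 287 on the vehicle array and 82.5 on the cordyceps array and was not well above background on the sunitinib array. Its log2 ratio was -1.54 with cordyceps and at most -2.89 with sunitinib. CD59, which blocks the membrane attack complex, had a ratio of -1.56 with cordyceps. The genes higher with cordyceps were COLEC11, a collectin gene, by 1.06, MASP2 by at least 1.14, and CD46, a complement regulator, by 6.03, whose spot lay in the streak. COLEC11 was also higher with sunitinib, by 1.45, with signals before scaling of 34.1 with vehicle and 44.3 with sunitinib. C1R had the lowest ratio with sunitinib among those detected on both arrays, -0.88. The medians were -0.14 with cordyceps and 0.01 with sunitinib. Over sunitinib, cordyceps had CFI (a bound of 1.35), CD46 (5.59), CD55 (1.02) and C1QBP (1.28) higher and CD59 (-1.02) lower. The CFI bound lay within its 95% limit of 1.42.

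For the Toll-like receptors and adaptors other than TLR2, 0 of 23 were more than 2-fold higher and 0 of 23 lower with cordyceps. The ratios of those detected on both arrays ran from -0.98 for MYD88, the adaptor of TLR2, to 0.77 for LY96. With sunitinib 4 of 25 were higher and 4 lower. Those detected on both arrays ran from 1.10 for RIGI, a sensor of viral RNA, to -1.50 for CD14, a co-receptor of TLR2 and TLR4. RIGI had signals of 478 with vehicle and 485 with sunitinib, so nearly all of its ratio comes from the scaling. The probes that stood for TIRAP, an adaptor of TLR2, and for TLR9 gave bounds of 7.12 and 1.35, as neither was well above background with vehicle. The TLR9 bound lay within its 95% limit of 1.68. The TIRAP probe had signals of 4.96 with vehicle and 1201 with sunitinib, and did not clear the background with cordyceps either. The other TIRAP probes, with 5.67 and 24.9, were not well above background with sunitinib. The one with 24.9 was well above background with vehicle, at 28.5, so the probes of this gene disagree. The medians were -0.11 and 0. In cordyceps over sunitinib 1 of 23 was higher, HSP90B1 by 1.20, and 5 were lower. These included TIRAP with a bound of -6.13 from the probe with 1201, and MYD88 at -1.36. The others were SARM1 at -1.23, TLR4 at -1.01 and IRAK4 with a bound of -1.07, within its 95% limit of 1.09.

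Among cytokine receptors and transcription factors known to act on these genes, 2 of 38 were higher and 2 lower with cordyceps, and 2 of 37 were higher and 3 lower with sunitinib. NFKBIZ, the atypical inhibitor protein known as a co-activator of LCN2 and DEFB4A, had signals of 954, 610.0 and 174 on the vehicle, cordyceps and sunitinib arrays, with log2 ratios over vehicle of -0.39 and -1.38. NFKB1, a subunit of NF-κB, had ratios of -0.81 and -1.25, and SOCS1, a feedback inhibitor of cytokine signalling, -0.86 and -1.25. With cordyceps IL1R1, the interleukin-1 receptor gene, had a ratio of -1.01. IL6R was higher there by a bound of 1.33, which lay within its 95% limit of 2.23. With sunitinib LIFR was higher by 1.04. Its signals were 34.1 with vehicle and 33.4 with sunitinib, so this ratio comes from the scaling. SOCS3 had the highest ratio with cordyceps among genes detected on both arrays, 0.65. The medians were -0.14 and -0.20. Over sunitinib, cordyceps had IL1RAP higher by 1.22 and IL17RE lower, at most -1.04, and LIFR had the lowest ratio detected on both arrays, -0.79.

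**Figure D4:**
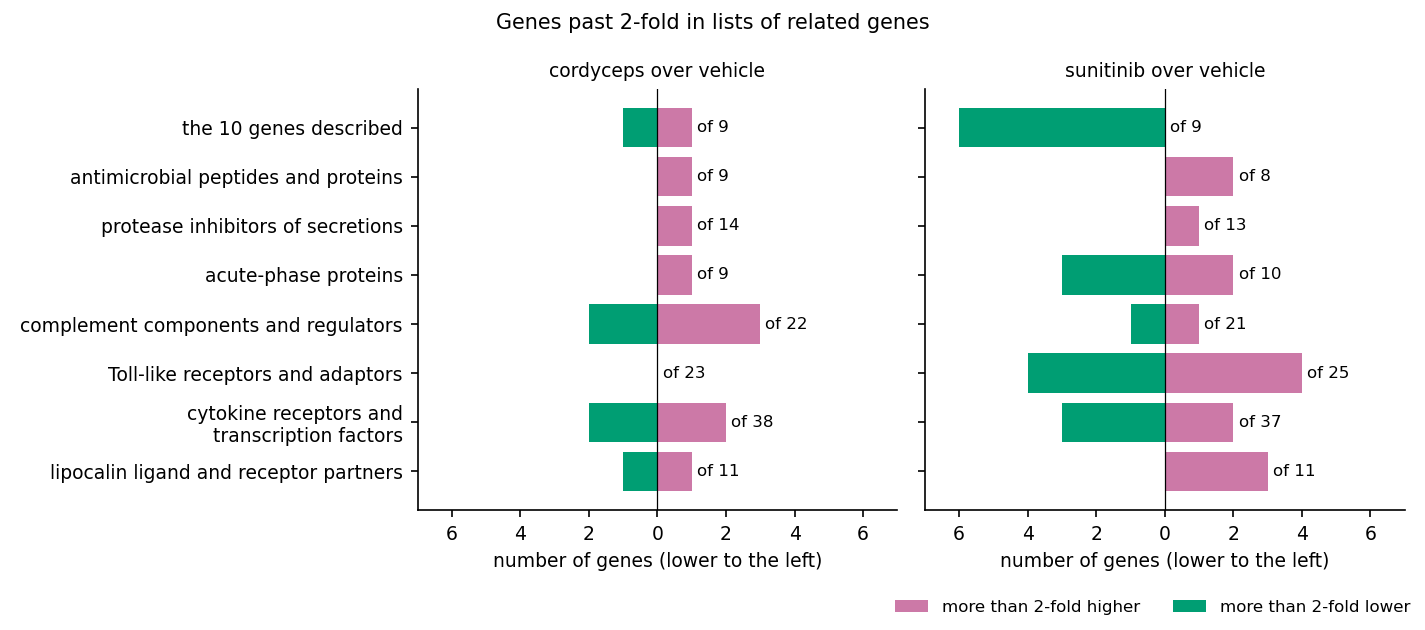
Number of genes (horizontal axes) more than 2-fold higher (to the right) or lower (to the left) than on the vehicle array, for the 10 genes described and for 7 lists of related genes, with the number compared beside each bar. Genes with a bound past 2-fold are included. With sunitinib 6 of the 9 genes compared are lower and 0 higher, and of the other antimicrobial genes 2 of 8 are higher and 0 lower. The 10 genes were chosen with their values known, so nothing is read from this difference.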

How the data were processed

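Gene expression was measured in TK-10 cells on 3 arrays, 1 each of vehicle, cordyceps and sunitinib. Per the file headers, the deposited values are Cy3 intensity on a linear scale from Feature Extraction 11.5.1.1, with the background subtracted by the software, and were not scaled between arrays. The authors' table of processed values holds the same intensity. The paper's methods describe a two-colour array and were followed only for the 2-fold limit.

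Control and outlier spots were dropped, each probe's spots were averaged, and the array's 75th percentile was subtracted on the log2 scale. Probes were named by accession through RefSeq tables. The probe with the highest mean stood for a gene, and comparison required that probe to clear the background flag on either array. If it did so on a single array, the value of the other array was raised to that array's lowest detected signal where it lay below it. The result is a bound, taken as 0 in medians where it was not above 1. With 1 array per condition no test was run.

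The genes and 12 lists were chosen with earlier results of these data known. The text names every gene chosen, the highest and lowest of each list detected on both arrays, those past 2-fold where a list had 5 or fewer, and the 3 nearest LCN2. Further marker genes and Toll-like receptor genes were named after their values were seen, and some genes that this rule names are not reported here. Scaling, background correction, filter, probe choice, outlier spots and the streak were varied in 11 alternatives. The calculations were tested on simulated data and used Python 3.11.15, numpy 2.4.6, pandas 2.3.3, R 4.3.3 and limma 3.58.1.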

Additional observations from a re-analysis of the deposited data

How the results depend on the processing

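Of 297 ratios of the 9 genes under 11 alternatives, 234 moved by less than the spot error and 63 by more, and 0 of the ratios past 2-fold changed sign. The count of genes more than 2-fold lower with cordyceps over vehicle was 3 with the unscaled table in place of 1. Other counts stayed within 1.5 times: with sunitinib 8 were lower without scaling, and over sunitinib cordyceps had 5 higher with median scaling (DEFB1 at 1.14), 6 without scaling and 3 with quantile normalization, where SAA2 was at 0.98. Median scaling moved the median log2 ratio of all genes to 0.18 for cordyceps over vehicle, -0.31 for sunitinib over vehicle and 0.54 for cordyceps over sunitinib, and without scaling it was -0.24, -1.05 and 0.80. The share of higher genes among those past 2-fold was 51.7%, 49.7% and 55.5% as reported, 76.8%, 21.2% and 92.1% with median scaling, 24.2%, 1.92% and 96.7% without scaling, and 62.6%, 80.6% and 43.7% with neither a filter on dim probes nor a floor. In that setting 7.20%, 27.8% and 7.85% of all genes were higher, and with normexp correction followed by quantile normalization 1.10%, 2.51% and 5.06%. Signals near the background limit the DEFB4A ratio with sunitinib, which ran from -5.38 to -3.26, and 1 array per condition limits every ratio. No paired analysis was possible because each condition had a single array.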

Other observations

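The genes that handle the iron ligand of LCN2 and its receptors formed a list of 11, all of which were well above background on at least 1 array. With sunitinib 3 of 11 were more than 2-fold higher than vehicle, with SLC40A1, the iron exporter ferroportin, at a log2 ratio of 1.98, FTL, the ferritin light chain, at 1.68 and FTH1, the ferritin heavy chain, at 1.08, and 0 of 11 were lower. LCN2 itself was lower there. With cordyceps FTL was higher by 1.10 and BDH2, an enzyme linked to a mammalian siderophore, was lower by a bound of -1.10. SLC40A1 had the lowest ratio among genes detected on both arrays with cordyceps, -0.73, and HMOX1, heme oxygenase, the lowest with sunitinib, -0.50. The list's median was -0.20 with cordyceps and 0.20 with sunitinib. The cordyceps array, set against sunitinib, had HMOX1 higher by 1.19 and MMP2 and SLC40A1 lower, at -1.28 and -2.72. Before scaling, the FTH1 signal was 189493 with vehicle and 190099 with sunitinib, so its ratio with sunitinib comes from the scaling to the 75th percentile. Among 15 housekeeping genes, RPLP0 and RPL13A were likewise past 2-fold with sunitinib, both at 1.04, and the list's median was 0.05.

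The marker genes of cell types moved as follows. With cordyceps, 2 of 15 renal markers were more than 2-fold lower than vehicle, CDH16, the kidney cadherin, at -2.24 and MUC1 at -1.01, and KRT7 had the highest ratio, 0.30. With sunitinib AQP1 was lower by a bound of -1.08, PAX2 had the highest ratio, 0.77, and LHX1 the lowest among those detected on both arrays, -0.93. In cordyceps over sunitinib MUC1, PAX2 (-1.39) and CDH16 (-1.74) were lower, and KRT7 had the highest ratio, 0.95. Of the neutrophil and macrophage markers, PTPRC was higher with sunitinib by 2.39, AZU1 by at least 2.82 and MARCO by at least 3.22. CSF3R had the lowest ratio among those detected on both arrays, 0.53. The PTPRC signal with vehicle, given above, lay near the lowest detected signal of that array, 18.2. These ratios also include the difference between the percentiles of the arrays. ITGAM, ITGAX and CSF1R, detected with vehicle and not with sunitinib, were lower by bounds of -0.91, -0.58 and -0.12. With cordyceps MARCO was higher by at least 1.98 and ITGAM lower by a bound of -1.01, with ITGAX at 0.22 and CSF3R at -0.28. In cordyceps over sunitinib PTPRC, AZU1 and MARCO were lower, with bounds of -1.42 and -1.83 for the first and second and a ratio of -1.25 for MARCO, and CSF3R was at -0.82. Of the lymphocyte markers none was past 2-fold over vehicle (0 of 4 in each comparison), with CD79A at -0.09 and CD4 at -0.23 with cordyceps, CD8A at 0.95 and CD4 at 0.53 with sunitinib, and in cordyceps over sunitinib CD8A was lower at -1.06 and CD4 was at -0.75. The hepatocyte markers detected were ASGR1, higher with cordyceps by 1.25 and at 0.35 with sunitinib, and APOA1, at 0.76 and 0.89. Set against sunitinib, cordyceps gave 0.90 for ASGR1 and -0.13 for APOA1. Housekeeping genes ran from -0.36 for GAPDH to 0.94 for HPRT1 with cordyceps and from -0.88 for RPLP0 to 1.68 for HPRT1 in cordyceps over sunitinib.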
